A study of Homo sapiens with 4 samples.

Results

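The respiratory chain is the set of protein complexes in the inner mitochondrial membrane that pass electrons from NADH and succinate to oxygen. Its subunit genes were chosen by symbol from the deposited table of normalised gene counts, by a rule that uses no measured value. The rule took the mitochondrially encoded ND, CO, ATP and CYB genes, the nuclear NDUFA, NDUFB, NDUFC, NDUFS and NDUFV genes, the succinate dehydrogenase genes, the UQCR genes, the COX5 to COX8 genes, CYC1 and CYCS. It matched 76 of the 17472 listed genes. Of these, 73 encode subunits or cytochrome c, 13 in the mitochondrial genome and 60 in the nucleus. The other 3 matches are the antisense RNA genes NDUFV2-AS1 and NDUFA6-AS1 and the pseudogene NDUFV2P1, and they were kept apart. All members but NDUFA7 passed the filter on low values, which left 75 tested members, 72 of them subunit genes.

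Complex I takes electrons from NADH, complex II from succinate, complex III hands them to cytochrome c, and complex IV passes them to oxygen. Complexes I, III and IV pump protons, and complex V, the ATP synthase, uses the gradient to make ATP. Complex II is encoded wholly in the nucleus, whereas parts of the core of complexes I and III come from the mitochondrial genome. The core of complex IV and parts of complex V come from it too. The mitochondrial genome is transcribed as long polycistronic RNAs that are cut into separate mRNAs and polyadenylated. Human embryonic stem cells hold a working respiratory chain but are known for a high rate of glycolysis.

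The cells were H1, a widely used human embryonic stem cell line, and their poly(A) RNA was read in 2 libraries of the WT genotype and 2 labelled MEK5DD overexpression. Both groups were kept in E8, a defined medium with FGF2 and TGF-beta. MEK5DD denotes MAP2K5, the kinase upstream of ERK5, with 2 residues changed to aspartate, both given as serines in the labels. Lentivirus carried it into the cells, and puromycin selection gave a single MEK5DD line. The labels describe neither treatment for the WT cells, so virus, selection, line and MEK5DD cannot be told apart as sources of a difference. Separate cultures are not stated for the replicates, so p-values reflect only library-to-library spread, which could be technical.

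The libraries held between 14908486 and 17628945 reads recovered from the table. MAP2K5 checked the labels, with 344 and 315 normalised counts in WT and 3382 and 3558 in MEK5DD. Of 15 markers of pluripotent cells, all 15 were listed, with a summed level of 176619 to 184849. At a limma adjusted p under 0.05, 2 of them rose and 2 fell. UTF1 (0.56 on the log2 scale) and NANOG (0.26) rose, and TERF1 (-0.285) and SOX2 (-0.20, limma adjusted p = 0.0437) fell. With limma run without a mean-variance trend, UTF1, NANOG and TERF1 lost their calls (adjusted p = 0.0561, 0.167 and 0.153). Of 8 testis and germ cell markers 1 was listed (summed level 44.8 to 57.2), of 12 muscle markers 6 and of 10 fibroblast and feeder markers 5. The summed muscle markers were 312 and 386 in WT and 441 and 556 in MEK5DD, and 1 of 6 rose, ACTA1 (1.90 on the log2 scale, limma adjusted p = 1.74e-05). The summed fibroblast markers were 7503 and 7410 in WT and 9225 and 8889 in MEK5DD, and 3 of 5 rose (TAGLN, COL1A2 and COL1A1). Most of that sum was THY1, with 5775 and 5704 in WT and 6214 and 6072 in MEK5DD. THY1 (0.10 on the log2 scale) and PDGFRB (-0.39) were not called, and COL1A1 lost its call without the trend (limma adjusted p = 0.0581). The summed neuroectoderm markers (10 of 11 listed) were 10236 and 10441 in WT and 10006 and 9449 in MEK5DD, a sum held mostly by NES (6178 and 6346 against 8240 and 7717), which rose. Of the 9 tested, 6 fell, with log2 fold changes from -2.72 (SIX6) to -0.77 (ZIC1), SOX1, MAP2, SOX3 and OTX2 between them. Over all tested genes, 7.69% were called higher and 6.47% lower. The part of these markers in the results was not tested.

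Neighbouring mitochondrial genes can share bases, and reads there belong to both genes. The stretch where MT-ATP8 runs into MT-ATP6 (chrM:8507-8592, GRCh38, GENCODE v29) and the join of MT-ND4L and MT-ND4 (chrM:10740-10786) are shown because the values of these 4 genes depend on how such reads were counted. Both are 5′ to 3′ on the plus strand, and the capitals are the bases that belong to both genes.
MT-ATP8 to MT-ATP6: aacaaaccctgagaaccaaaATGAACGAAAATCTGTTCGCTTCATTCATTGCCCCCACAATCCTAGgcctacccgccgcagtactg
MT-ND4L to MT-ND4: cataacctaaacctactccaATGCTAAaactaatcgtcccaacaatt
The shared part was 46 bases for MT-ATP8 and MT-ATP6, which is 22.2% of MT-ATP8, and 7 bases for the MT-ND4L pair.

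Nuclear chain genes are known targets of NRF1, the ETS factor GABP and YY1. RefSeq promoters (GRCh38.p14, 250 bases before to 50 after a start) were at hand for 50 of the 60 nuclear subunit genes, in 58 promoters. The letters TGCGCA, a part of the NRF1 motif, searched on both strands like the others, were in 32.8% of them against 11.7% of the 15848 promoters of tested genes. The same shares were, for the ETS letters CCGGAAG, 24.1% against 15.8%, and for the YY1 letters AAGATGGCG, 13.8% against 3.19%. The 3 sets of letters do not overlap in the windows shown. A match is a description of the sequence, not a bound site. The promoters of SDHB and NDUFS7 are shown because these were the nuclear subunit genes with the smallest p-values in the comparison of MEK5DD with WT. Each runs from 250 bases before the start to 30 after it, 5′ to 3′ in the direction of the gene, with matches to the letters in capitals. SDHB is on the minus strand (chr1:17054003-17054282) and NDUFS7 on the plus strand (chr19:1383657-1383936).
SDHB: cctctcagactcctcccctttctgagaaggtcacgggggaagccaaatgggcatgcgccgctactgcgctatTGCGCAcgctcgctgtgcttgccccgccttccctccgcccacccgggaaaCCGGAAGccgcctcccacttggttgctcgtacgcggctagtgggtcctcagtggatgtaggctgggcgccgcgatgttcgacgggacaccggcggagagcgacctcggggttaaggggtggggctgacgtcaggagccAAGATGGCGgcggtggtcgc
NDUFS7: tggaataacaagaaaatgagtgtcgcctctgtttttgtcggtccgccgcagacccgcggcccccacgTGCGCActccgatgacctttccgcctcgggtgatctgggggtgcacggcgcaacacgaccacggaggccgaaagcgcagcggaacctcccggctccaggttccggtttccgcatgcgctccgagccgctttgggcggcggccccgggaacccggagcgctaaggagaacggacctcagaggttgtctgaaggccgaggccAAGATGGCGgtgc
Both hold TGCGCA and the YY1 letters, and the ETS letters are in the SDHB window alone.

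Values below are normalised read counts, and fold changes are MEK5DD minus WT on the scale of log2(value + 1), tested with limma and adjusted over all 15721 tested genes. None of the 75 tested members passed an adjusted p of 0.05, against 14.2% of all tested genes (7.69% higher and 6.47% lower). At an unadjusted p under 0.05 there were 7 members, all subunit genes, against 27.8% of all tested genes. With other tools, edgeR called 1 subunit gene (MT-CO2, adjusted p = 0.0444), where it called 14.7% of tested genes, and DESeq2 called 0, where it called 9.57%. The log2 fold changes of the 72 subunit genes ran from -0.20 to 0.35, with a median of 0.04 against -0.002 over all tested genes. The 95% interval lay within 1.5-fold in both directions for 69 of them (95.8%), against 61.3% of all tested genes and 93.8% of those with a mean of at least 500. The exceptions were NDUFS7, NDUFV2 and NDUFA13. No subunit gene was called with a pseudocount of 5 (14.4% of all tested genes called), with values scaled to the total of nuclear genes (14%) or without the mean-variance trend (2.79%), and a replicate block called 4 (21.3%). WT and MEK5DD values did not overlap in 22 subunit genes, 17 higher and 5 lower, which is 30.6% against 56.2% of all tested genes.

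**Figure D1:**
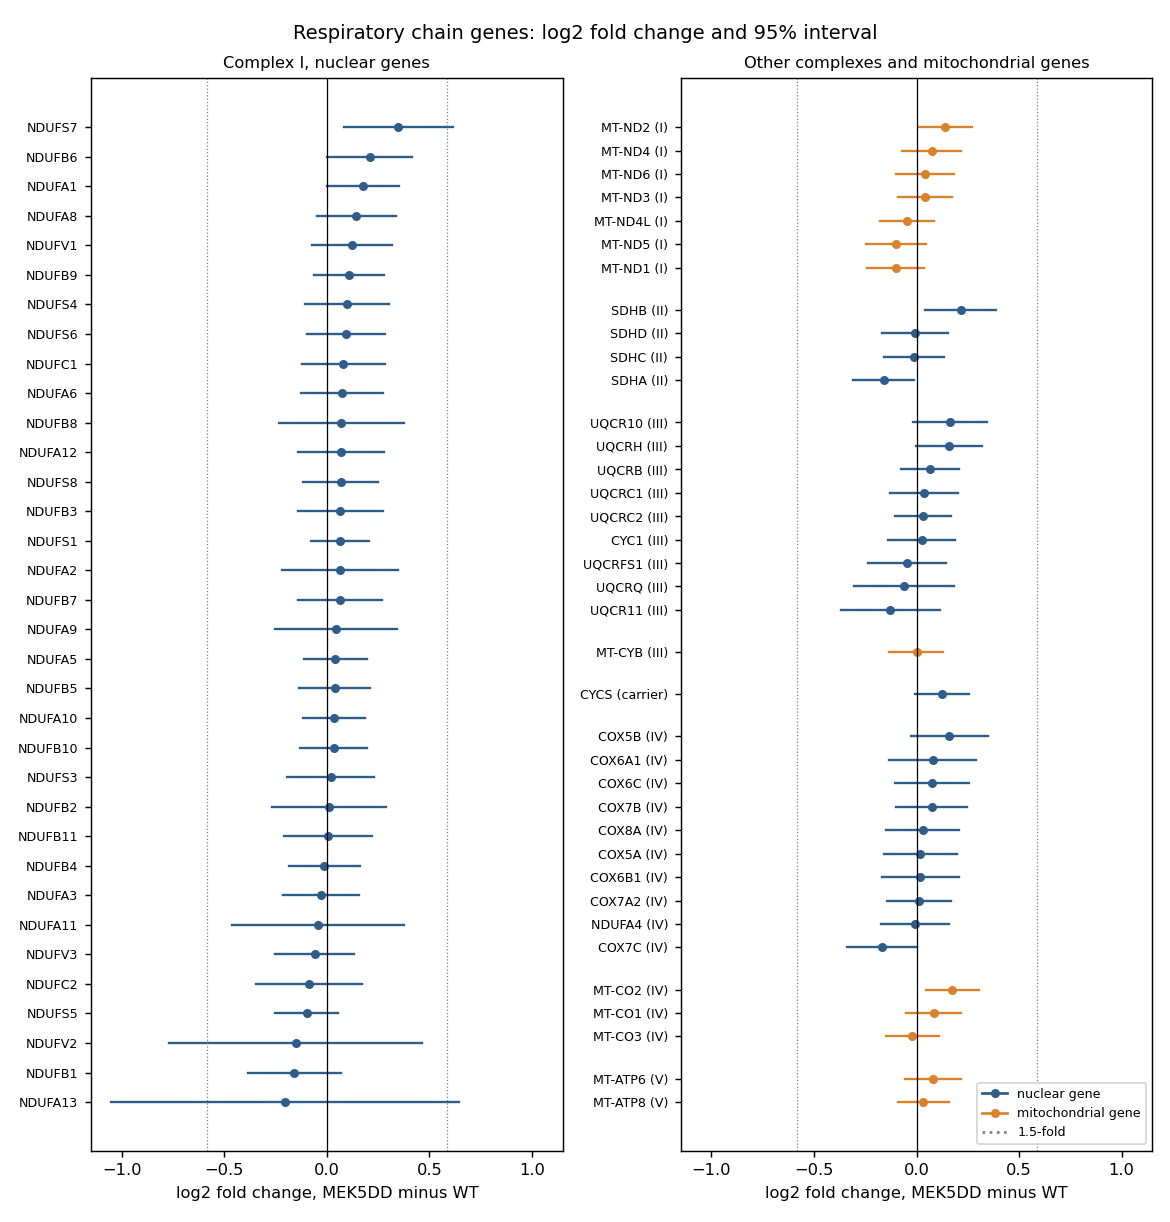
Log2 fold change (MEK5DD minus WT, points) and its 95% interval from limma (bars) for the tested subunit genes but 1, by complex, with nuclear genes in blue and mitochondrial genes in orange. Dotted lines mark 1.5-fold, and 3 genes (NDUFS7, NDUFV2 and NDUFA13) have an interval that crosses at least 1 of them.

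The 13 mitochondrial mRNAs were among the most abundant in the table and were close in level in both groups. Their log2 fold changes ran from -0.10 to 0.17 with a median of 0.04, 8 positive and 5 negative, and every interval lay within 1.5-fold. In 5 genes the MEK5DD values were both above the WT values, and in 0 both below. Groups were thus separate in 38.5% of these genes, against 56.2% of all tested genes (28.2% higher and 28% lower).

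MT-CO2, which encodes the subunit of complex IV that receives electrons from cytochrome c, came nearest to the threshold. It had 96716 and 100595 counts in WT and 111884 and 110696 in MEK5DD, so that the groups did not overlap. The log2 fold change was 0.17 (SE 0.06, limma adjusted p = 0.0706). MT-CO1, the catalytic subunit, had 254268 and 266678 in WT and 277167 and 274672 in MEK5DD (0.08, SE 0.06), also without overlap. MT-CO3, the remaining mitochondrial subunit of complex IV, had 121753 and 126476 against 122353 and 122235 (-0.02, SE 0.06), with overlap. The 3 mRNAs of 1 complex thus did not show the same order of groups.

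Of the 7 mitochondrial subunits of complex I, all of them parts of its proton-pumping membrane arm, MT-ND2 alone had separate groups. That is 14.3%, against 56.2% of all tested genes. MT-ND2 had 36873 and 39815 in WT and 42277 and 42230 in MEK5DD (0.14, SE 0.06, limma adjusted p = 0.148). MT-ND1 had 28049 and 30703 against 28164 and 26543 (-0.10, SE 0.06), and MEK5DD 2 was the lowest of the 4. MT-ND5 had 59029 and 66008 against 57140 and 59317 (-0.10, SE 0.07), where WT 2 stood above the other libraries. MT-ND4 showed the reverse single library, with WT 1 lowest at 104618 and the others at 115962 (WT 2), 116263 and 115584. MT-ND4L, which shares an mRNA with MT-ND4, had 15192 and 16022 against 14596 and 15625. MT-ND3 had 15127 and 15210 against 16315 and 14948, and MT-ND6, the one encoded on the light strand, 17107 and 18586 against 19092 and 17667. In these 3 genes the groups overlapped.

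MT-CYB, the only mitochondrial subunit of complex III, had 56265 and 60439 in WT and 58894 and 57704 in MEK5DD, a log2 fold change of 0.00 (SE 0.06). The complex V genes MT-ATP6 (69064 and 75018 against 76903 and 75307) and MT-ATP8 (9719 and 9992 against 10161 and 10003) had separate groups with small gaps, and log2 fold changes of 0.08 (SE 0.06) and 0.03 (SE 0.06).

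Levels between genes were compared per kilobase of exon. MT-CO1 stood first at a mean of 173928 normalised counts per kb over the 4 libraries, followed by MT-CO3 (157148) and MT-CO2 (153469). The ranges of MT-CO3 (155298 to 161321) and MT-CO2 (141398 to 163573) overlapped, so that their order is not fixed. MT-ATP6 (108771) and MT-ND4 (82080) each stood clear of their neighbours in all 4 libraries. MT-ND4L (51713) and MT-CYB (51118) overlapped, as did MT-ATP8 (48156) and MT-ND3 (44509), while the highest MT-ATP8 value (49085) lay just under the lowest MT-CYB value (49312). The lowest was MT-ND1 at 29670, with MT-ND5 (33319), MT-ND6 (34501) and MT-ND2 (38675) above it, each overlapping the next. MT-ND4 thus stood above MT-ND4L per kb in every library, though both lie on 1 mRNA.

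**Figure D2:**
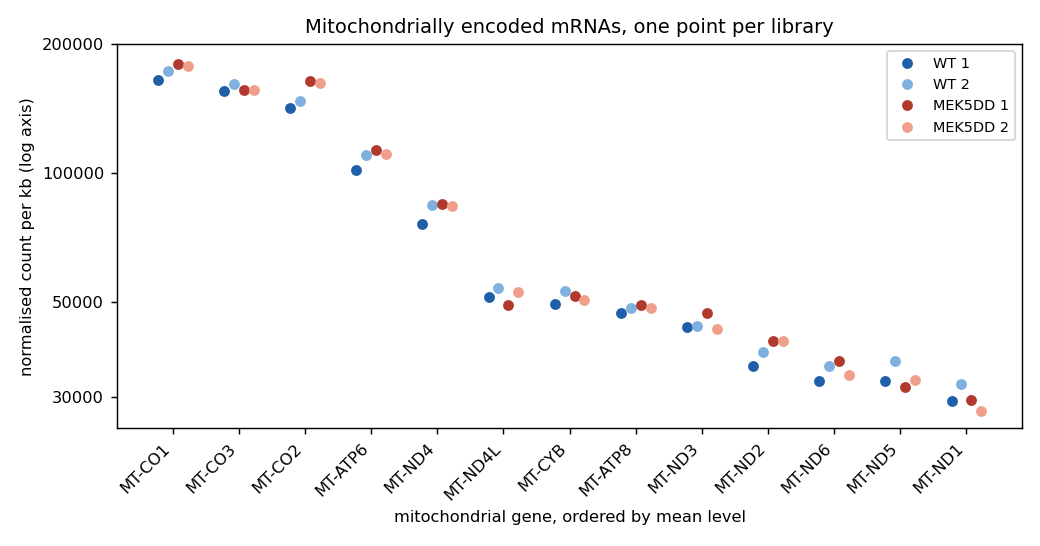
Normalised count per kb of exon (log axis) of the 13 mitochondrially encoded mRNAs, 1 point for each of the 4 libraries. The order runs from MT-CO1 (mean 173928) to MT-ND1 (mean 29670). WT and MEK5DD points of 1 gene lie close beside that full range, but the points of several neighbouring genes overlap, such as MT-CO3 and MT-CO2.

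WT 2 was above WT 1 in 13 of the 13 mitochondrial mRNAs, by a median of 0.10 on the log2 scale. A shift common to all 13 drops out of the share of each mRNA in the mitochondrial mRNA sum of its own library. By that measure 4 mRNAs had higher shares in both MEK5DD libraries than in both WT libraries, 5 had lower shares and 4 overlapped. Shares of a sum are tied, so a rise in some forces a fall in others, and these counts have no counterpart over all genes. On the different scale of the deposited values, groups were separate in 38.5% of the 13 mRNAs and 56.2% of all tested genes. MT-CO2 made up 10.9% and 10.7% of the sum in WT and 11.8% and 11.7% in MEK5DD, and MT-ND2 4.17% and 4.23% against 4.44% and 4.48%. MT-ND1 made up 3.17% and 3.26% against 2.96% and 2.82%, and MT-ND5 6.68% and 7.01% against 6.01% and 6.29%. The MEK5DD mean share was 1.09 times the WT mean for MT-CO2 and 0.90 times for both MT-ND1 and MT-ND5. With 2 libraries a group, the exact permutation test (two-sided) gave p = 0.33 for each of these 4, the smallest p this design allows.

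**Figure D3:**
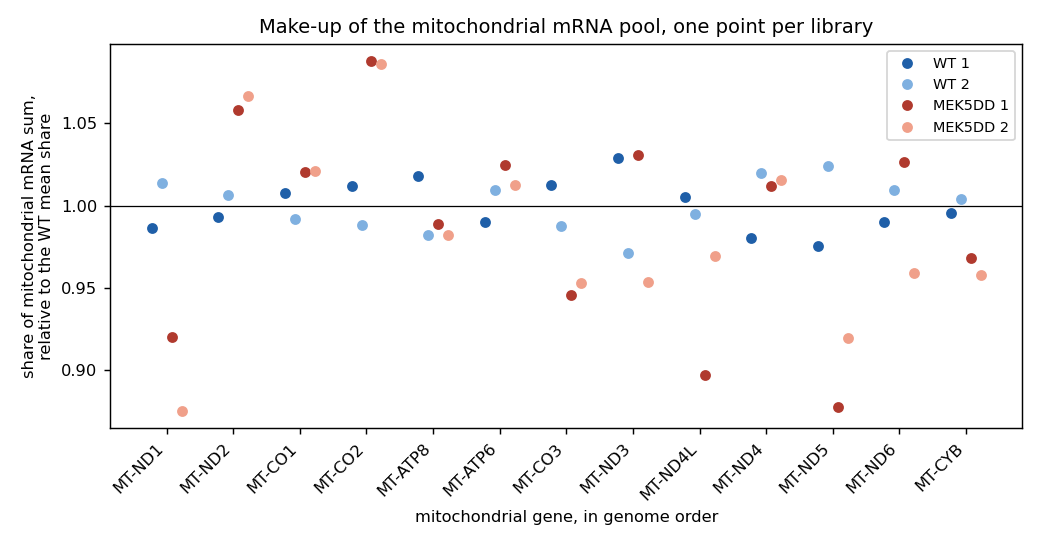
Share of each mitochondrial mRNA in the mitochondrial mRNA sum of its library, divided by the mean WT share (y axis), 1 point for each library, with genes in genome order. In both MEK5DD libraries MT-ND2, MT-CO1, MT-CO2 and MT-ATP6 lie above both WT libraries. MT-ND1, MT-CO3, MT-ND4L, MT-ND5 and MT-CYB lie below both WT libraries there.

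Among the 35 tested nuclear genes of complex I, 0 passed the adjusted threshold. Groups were separate in 25.7% of them (7 higher and 2 lower), against 56.2% of all tested genes. Of the 35, 26 had a positive and 9 a negative log2 fold change, and the median was 0.06. NDUFS7, a core subunit that carries an iron-sulphur cluster beside the quinone site, had the largest. It had 171 and 189 counts in WT and 234 and 223 in MEK5DD, with separate groups, a log2 fold change of 0.35 (SE 0.12) and a limma adjusted p of 0.0808. It lies at chr19:1383527-1395589, and 55.1% of its exon bases are shared with genes annotated on the other strand, so its reads cannot be told apart from theirs unless strand was used in the counting.

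Core subunits encoded in the nucleus form the arm that takes electrons from NADH to quinone. NDUFS1 had 2266 and 2175 against 2334 and 2311 (0.07, SE 0.07), with separate groups. NDUFV1, which binds NADH, had 1625 and 1566 against 1923 and 1571 (0.12, SE 0.09), NDUFS3 854 and 891 against 980 and 798, and NDUFS8 696 and 716 against 772 and 708. In these 3 genes MEK5DD 1 was the highest library, and the groups overlapped. NDUFV2 held 23.6 to 30.2 counts, too few for a narrow interval (-0.77 to 0.47).

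Accessory subunits, which surround the core and take part in assembly and stability, spread to both sides. NDUFB6 had 662 and 621 in WT against 801 and 685 in MEK5DD (0.21, SE 0.09) and NDUFA1 795 and 751 against 902 and 847 (0.18, SE 0.08), each with separate groups and a limma adjusted p of 0.176. NDUFA8 had 707 and 741 against 853 and 750 (0.14, SE 0.09), with the lower MEK5DD value close to the upper WT value. In the other direction, NDUFB1 had 550 and 542 against 540 and 443 (-0.16, SE 0.10) and NDUFS5 3436 and 3402 against 3385 and 3011 (-0.10, SE 0.07). In both, MEK5DD 1 lay just under the WT values and MEK5DD 2 further below.

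Complex II, the succinate dehydrogenase of the citric acid cycle, has 4 subunits, and its catalytic subunits differed in sign. SDHB, the iron-sulphur subunit (chr1:17018722-17054170), had 924 and 894 counts in WT and 1108 and 1006 in MEK5DD (0.22, SE 0.08, limma adjusted p = 0.0956). SDHA, the flavoprotein that oxidises succinate, had 2353 and 2275 in WT and 2148 and 1994 in MEK5DD (-0.16, SE 0.07, limma adjusted p = 0.147). Groups were separate in both genes, which is 50% of the 4, against 56.2% of all tested genes. The pseudogenes SDHAP1 and SDHAP3 are also listed, and how reads were divided between them and SDHA is uncertain. The membrane anchors SDHC (2197 and 2078 against 2166 and 2067) and SDHD (1533 and 1532 against 1599 and 1451) overlapped, with log2 fold changes of -0.01 each. Whether SDHA and SDHB differ from each other in response was not tested.

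In complex III, 6 of 9 nuclear genes had a positive log2 fold change (median 0.03). UQCRH, the hinge protein that aids the contact of cytochrome c1 with cytochrome c, had 4268 and 4055 in WT and 4971 and 4332 in MEK5DD (0.16, SE 0.07, limma adjusted p = 0.184). The near-identical gene UQCRHL is also listed, and reads may be shared between them. UQCR10 had 1007 and 913 against 1124 and 1028 (0.16, SE 0.08). UQCRB had 2538 and 2471 against 2696 and 2541, and UQCR11 277 and 291 against 271 and 248 (-0.13, SE 0.11). Groups were separate in these 4 genes, which is 44.4% of the 9, against 56.2% of all tested genes. The redox subunits CYC1 (1681 and 1648 against 1789 and 1603) and UQCRFS1, the Rieske protein (1806 and 1845 against 1949 and 1606), overlapped, with MEK5DD 1 highest and MEK5DD 2 lowest. CYCS, the mobile carrier between complexes III and IV, had 4778 and 4590 against 5182 and 5034 (0.13, SE 0.06, limma adjusted p = 0.199), with separate groups.

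Of the 10 nuclear genes of complex IV, NDUFA4 among them, COX7C alone had separate groups (10%, against 56.2% of all tested genes). COX7C had 4948 and 4822 in WT and 4747 and 3983 in MEK5DD (-0.17, SE 0.08, limma adjusted p = 0.188), with MEK5DD 2 far below the rest. COX5B had 1462 and 1306 against 1658 and 1438 (0.16, SE 0.09). COX6A1 had 985 and 914 against 1109 and 907, COX6B1 2154 and 2020 against 2317 and 1925, and COX7A2 2047 and 1936 against 2101 and 1921. COX7B had 1409 and 1326 against 1532 and 1350, and COX8A 1012 and 1014 against 1102 and 972. The log2 fold changes of these 5 genes ran from 0.01 (COX7A2) to 0.08 (COX6A1). They are the widely expressed isoforms, and their partners COX6A2, COX6B2, COX7A1, COX7B2 and COX8C, together with NDUFA4L2 and COX4I2, are not listed and were not analysed here. COX4I1, which the rule does not match, had 3986 and 3925 against 4413 and 3897 (0.07, SE 0.07).

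Summed over each library, the mitochondrial mRNAs made up 5.69% and 6.06% of all listed reads in WT and 5.97% and 6.0% in MEK5DD, where the MEK5DD values lay between the WT values. The nuclear subunit mRNAs made up 0.529% and 0.518% in WT and 0.554% and 0.5% in MEK5DD, where the WT values lay between the MEK5DD values. The ratio of the sums, mitochondrial over nuclear, was 10.8 and 11.7 in WT and 10.8 and 12.0 in MEK5DD. The log2 ratio averaged 3.49 ± 0.09 for WT and 3.51 ± 0.11 for MEK5DD (SD over 2 libraries; exact permutation test, two-sided, p = 0.667, where the smallest possible is 0.33). Replicates within a group thus differed more than the groups did. In bulk RNA, fewer cells and less RNA per cell cannot be told apart.

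The MEK5DD libraries differed from each other in 1 direction across the nuclear subunit genes. MEK5DD 1 was above MEK5DD 2 in 55 of the 59 tested genes (93.2%), by a median of 0.18 on the log2 scale, against 52.2% and 0.01 over all tested genes. The exceptions were NDUFA9, NDUFV3 and the low genes NDUFV2 and NDUFA13, all of complex I. The WT libraries differed by a median of 0.03 over the same genes, with WT 1 higher in 36 and WT 2 in 23. Across the mitochondrial mRNAs the median difference between MEK5DD libraries was 0.02, though MEK5DD 1 was higher in 11 of 13. Some other lists of nuclear mitochondrial genes showed the order too: 16 of 17 nuclear ATP synthase genes (median 0.18) and 65 of 77 mitochondrial ribosomal protein genes (median 0.14). Others did not: 8 of 15 genes of mitochondrial DNA upkeep and transcription (median 0.004) and 8 of 18 of mitochondrial RNA processing (median -0.004).

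In other protein-coding genes, the difference between the MEK5DD libraries fell with exon length. Among protein-coding genes outside the nuclear subunit genes, MEK5DD 1 was above MEK5DD 2 in 79.1% of those with under 1000 exon bases (median 0.14), 75.7% of those from 1000 to 2000 (0.13), 64.2% from 2000 to 4000 (0.06) and 36.7% above that (-0.06). The nuclear subunit genes in the same classes had medians of 0.20, 0.21, 0.20 and 0.04, similar in all but the longest class. In the WT pair the medians of the other protein-coding genes ran from 0.04 in the shortest class to -0.01 in the longest. The part of exon length in the difference of the MEK5DD libraries was not tested.

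**Figure D4:**
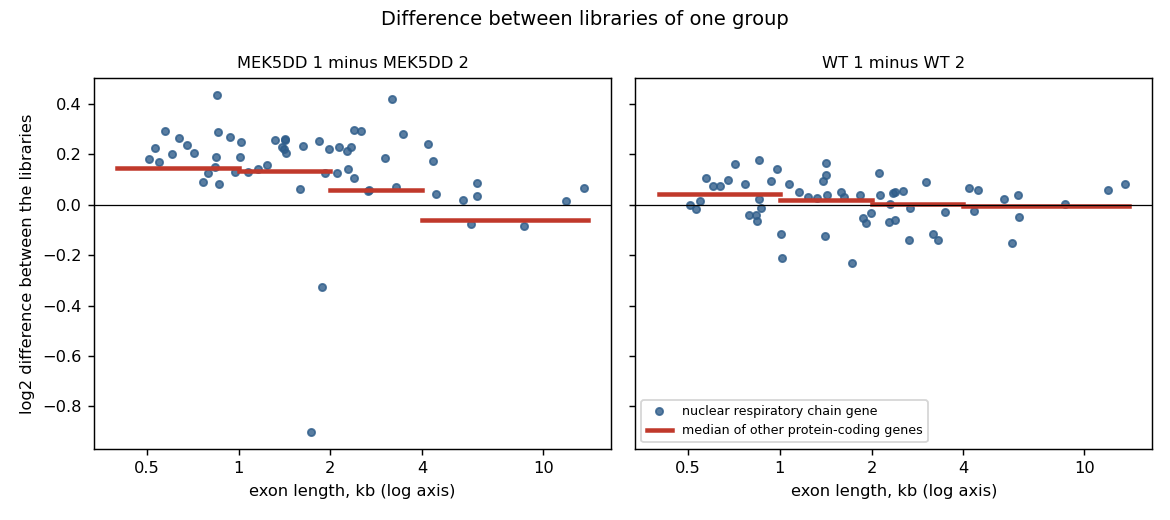
Log2 difference between the 2 libraries of a group (y axis) against exon length in kb (log axis), for the 59 tested nuclear subunit genes (points) and the median of other protein-coding genes in 4 length classes (red bars; the shortest class is under 1 kb and the longest 4 kb or more). In the MEK5DD pair 55 of 59 points lie above 0, and in the WT pair 36 of 59.

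Which subunit genes were called depended on the MEK5DD library that was left out. Without MEK5DD 2, limma called 28 subunit genes higher and 2 lower, where 29.4% of all tested genes were called. Among them were COX5B (0.26), NDUFV1 (0.27), UQCRH (0.26) and SDHB (0.28). Without MEK5DD 1 it called 2 higher and 6 lower, where 23.8% of all tested genes were called, and the 6 were COX7C (-0.295), NDUFB1 (-0.30), SDHA (-0.21), UQCRFS1 (-0.185), NDUFS5 (-0.18) and MT-ND1 (-0.145). The lone MEK5DD library is then assumed to vary like the WT pair. MT-CO2 and MT-ND2 were the 2 genes called in both fits, higher in each (MT-CO2 adjusted p = 9.28e-06 and 9.95e-07; MT-ND2 adjusted p = 0.000665 and 0.000492). Without WT 1 or without WT 2, 0 subunit genes were called, where 7.61% and 7.38% of all tested genes were. The median of the nuclear subunit genes was -0.04 without MEK5DD 1 and 0.13 without MEK5DD 2.

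Levels of the nuclear subunit genes per kb spanned from NDUFA13 (10.6) to UQCRH (7295), with medians over genes of 513 in complex I, 760 in complex II, 1044 in complex III and 1789 in complex IV. The mitochondrial genes of complexes I and IV had medians of 38675 and 157148. NDUFA13, NDUFA7, NDUFV2, NDUFA11 and NDUFA9 were at 10.6 to 16.5 per kb, below the next gene, NDUFS7, at 62.0. In GENCODE v29 these 5 genes share 32.9%, 78.7%, 41.1%, 9.3% and 11.4% of their exon bases with another gene. The 32 nuclear subunit genes with no shared base had a median of 1071 per kb and a lowest value of 115. The 15 with up to 20% shared had a median of 384 and a lowest value of 15.8. The 13 with over 20% shared had a median of 431 and a lowest value of 10.6. NDUFA7 had 8.81 and 3.12 counts in WT and 9.995 and 11.96 in MEK5DD and was not tested. Which annotation and strand setting the authors counted with is not stated in the sources, and the part of shared exons was not tested.

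**Figure D5:**
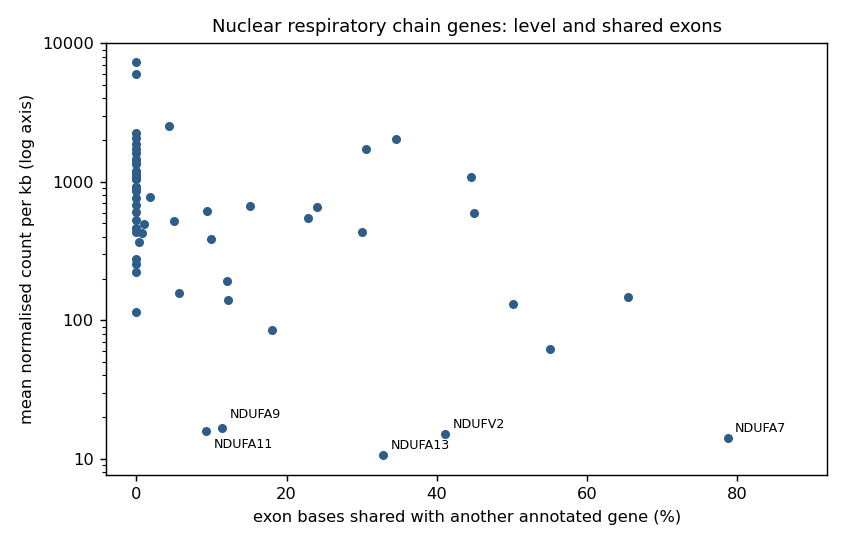
Mean normalised count per kb (log axis) against the percent of exon bases shared with another gene of GENCODE v29, for the 60 nuclear subunit genes. The 5 named genes lie between 10.6 and 16.5 per kb, and the genes with no shared base start at 115.

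The 3 matches that are not subunit genes were low. NDUFV2-AS1 had 15.0 and 12.5 against 18.2 and 3.99, NDUFA6-AS1 8.81 and 12.5 against 9.09 and 16.9, and NDUFV2P1 61.7 and 58.3 against 62.7 and 46.8. NDUFV2P1, a processed copy, thus held more counts than NDUFV2 itself.

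Other RNAs of the mitochondrial genome were read beside the mRNAs. The rRNAs MT-RNR1 and MT-RNR2 made up 0.696% and 0.699% of all listed reads in WT and 0.644% and 0.651% in MEK5DD, with separate groups (exact permutation test, two-sided, p = 0.33, the smallest possible). Neither was called (MT-RNR2 -0.09, SE 0.06, limma adjusted p = 0.369). Of the 8 tested mitochondrial tRNA genes 0 were called, and MT-TC had the smallest p, with 866 and 812 against 620 and 756 (-0.29, SE 0.10, limma adjusted p = 0.0726). The nucleus holds copies of mitochondrial genes that can take up reads, and of 11 listed copies 0 were called. The most abundant, MTATP6P1, had 7144 and 7642 in WT and 8137 and 7894 in MEK5DD (0.12, SE 0.06), beside 0.08 for MT-ATP6. MTCO2P12 had 201 and 205 against 255 and 241 (0.29, SE 0.11, limma adjusted p = 0.122), beside 0.17 for MT-CO2.

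Counts of called partner genes of the chain stand beside 14.2% called over all tested genes (7.69% higher and 6.47% lower). Of the 17 nuclear ATP synthase genes 0 were called (median 0.04). Of 16 complex I assembly factors 0 rose and 1 fell, NDUFAF3, which acts early in building the quinone module (194 and 217 against 157 and 136; -0.49, SE 0.14, limma adjusted p = 0.033). Of 10 assembly factors of complexes II and III and 22 of complex IV 0 were called. Among 77 mitochondrial ribosomal protein genes 4 rose and 1 fell (median 0.06), led by MRPS17 (-0.64, SE 0.17), MRPS6 (0.62, SE 0.08) and MRPL40 (0.47, SE 0.12). Of 15 genes of mitochondrial DNA upkeep and transcription 1 rose, POLG, the mitochondrial DNA polymerase (0.26, SE 0.07), and of 18 of mitochondrial RNA processing 1 rose, GRSF1, an RNA-binding protein of mitochondrial RNA granules (0.23, SE 0.07).

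Of 13 regulators of chain genes 2 rose and 1 fell, also beside 14.2% called over all tested genes. MYC had 1183 and 1177 in WT and 1708 and 1543 in MEK5DD (0.46, SE 0.07, limma adjusted p = 0.00164). ESRRA, a nuclear receptor that binds chain gene promoters, had 456 and 398 against 565 and 527 (0.36, SE 0.10), and HCFC1, a transcriptional cofactor, had 2956 and 3284 against 2646 and 2613 (-0.24, SE 0.07). Of 25 import and inner membrane genes 3 rose and 0 fell, a share near that over all tested genes: TOMM7 (0.36, SE 0.08), TIMM50 (0.28, SE 0.07) and TOMM70 (0.23, SE 0.06). Without WT 2, each of NDUFAF3, MRPS17, MRPL40, POLG, GRSF1, ESRRA, HCFC1, TOMM7, TIMM50 and TOMM70 lost its call, with an adjusted p from 0.145 (MRPL40) to 0.543 (HCFC1). Without WT 1, all of these but MRPS17, ESRRA and TOMM7 lost it too, and all 10 lost it when limma was run with no trend. With DESeq2, all of the 10 but TOMM7 and TIMM50 lost it, with an adjusted p from 0.0618 (HCFC1) to 0.157 (MRPS17). MYC and MRPS6 kept theirs in each fit that left out 1 library, and lost them with no trend (adjusted p = 0.0925 and 0.0566).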

How the data were processed

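The deposited values are a signal: counts per gene after normalisation by the authors. All values of a library were whole multiples of its smallest one (tolerance 0.001), from which scaling by 1 factor per library was inferred. Software listed in the submitters' processing notes, without roles, is STAR, DESeq2 1.26.0, featureCounts 1.5.3 and Trimmomatic 0.36, with build hg38. Members were found by a rule on symbols that uses no value, but this set of genes, like the other gene lists, was proposed with earlier results of these data known.

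The main test was limma 3.58.1 (R 4.3.3) with a mean-variance trend on log2(value + 1), for the 15721 genes that reached 10 in 2 or more libraries, two-sided, with Benjamini-Hochberg adjustment and a threshold of 0.05, and no covariate. The pseudocount understates changes of low genes. Alternatives were edgeR 4.0.16 and DESeq2 1.42.0 on reads recovered by dividing by the smallest value, other pseudocounts, filters and scalings, no trend, a replicate term, and each library left out. The procedure was tested on simulated data.

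Exon lengths came from the basic transcripts of GENCODE v29 (GRCh38), for protein-coding genes the protein-coding ones, and shared bases were counted against all exons of any other gene, noncoding ones included. Symbols were also matched through older names. Named genes were all mitochondrial members, any called nuclear member, the nuclear member of each complex with the largest change, isoform pairs, CYCS, CYC1, and up to 3 called genes of each other list. Further members and markers were picked with their values in view. Values of 1 member are not reported here, though counts and medians include it. Replicates with the same number did not deviate together (correlation 0.05) and were not taken as pairs.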

Additional observations from a re-analysis of the deposited data

How the results depend on the processing

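Over all genes, 2226 were called, against 439 without the mean-variance trend, 1358 with DESeq2, 3349 with a replicate block and 1160 to 4629 with a library left out. Subunit genes called higher were 0, against 1 with edgeR, 3 with the replicate block and 0 to 28 with a library left out. Subunit genes called lower were 0, against 1 with the replicate block and 0 to 6 with a library left out. Called mitochondrial genes were 0, against 1 with edgeR, 1 with the replicate block and 0 to 8 with a library left out, and called nuclear genes 0, against 3 with the replicate block and 0 to 22 with a library left out. The genes called with the replicate block were MT-CO2, SDHB, NDUFS7 and COX7C, but numbers shared between groups name the libraries and do not pair them. The other pseudocounts, filters and scalings and the fit without a trend called 0 subunit genes. Scaled to the total of nuclear genes, the medians were 0.02 for mitochondrial and 0.01 for nuclear genes. The difference in the log2 ratio of mitochondrial to nuclear sums ran from -0.06 to 0.10 with a library left out. Precision is limited by 2 libraries a group and, for NDUFV2, NDUFA13 and NDUFA7, by low counts.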
